A study of Homo sapiens with 6 samples.

Results

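The 10 genes ATF3, ATF4, ATF6, DDIT3, DDIT4, TRIB3, ASNS, SESN2, XBP1 and HSPA5 of the integrated stress response and the unfolded protein response were followed in a pair of human lung adenocarcinoma cell lines. All probe sets whose platform annotation names 1 of these genes and no other were taken, which gave 20 of the 54675 probe sets on the array and 10 of its 19775 named genes. CL1-5, the highly invasive line, was compared with CL1-0, the poorly invasive line, and both derive from the line CL1. Cells of both lines grew in RPMI medium with 10% fetal bovine serum and 1% penicillin/streptomycin at 37 °C and 5% CO2. No agent that provokes stress was labelled, and the growth state of the cultures was not tested. The study made 6 one-colour arrays from total RNA, 3 biological repeats a line, numbered 1 to 3.

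The unfolded protein response starts at the membrane of the endoplasmic reticulum (ER), where the sensors PERK (EIF2AK3), IRE1 (ERN1) and ATF6 react to misfolded proteins. ATF6 is cut loose to become a transcription factor, IRE1 splices XBP1 mRNA, and PERK phosphorylates the initiation factor eIF2. The last step is shared with the kinases GCN2, HRI and PKR, which sense amino acid shortage, haem shortage and double-stranded RNA, and is the core of the integrated stress response. It lowers general translation while favouring that of ATF4, whose targets include ATF3, DDIT3, TRIB3, ASNS and SESN2. Splicing of XBP1, cleavage of ATF6 and translation of ATF4 are not read by these transcript signals.

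Signals are deposited intensities in arbitrary units on a linear scale, and fold changes are log2 values of CL1-5 over CL1-0 on a log2(signal + 6.85) scale, with n = 3 arrays a line throughout. Array medians lay between 30.2 and 30.9 units. The 40th percentile of an array, 19.5 to 20.3 units, stood in for background. Of the 20 probe sets, 18 lay above it on all 6 arrays, and 2, ASNS 241082_at and XBP1 242021_at, lay below it on all 6 and were not tested. The number of arrays limits the precision, and over 14828 tested genes the standard error of the log2 value had a median of 0.11. The ACTB 3′ to 5′ ratio, a sign of RNA quality, was 0.31, 0.40 and 0.91 (log2) in CL1-5 repeats 1 to 3 and 0.53, 0.44 and 1.17 in those of CL1-0, highest in repeat 3 of both lines. Of 10 lung and epithelial markers, 8 lay above the 40th percentile on every CL1-5 array and 9 on every CL1-0 array, and KRT19 lay below it on all 6. Their summed signals were 4836 to 5616 units in CL1-5 and 569 to 625 in CL1-0. Most of the CL1-5 sum was KRT18 (4222 ± 417 units against 46.5 ± 7.85 in CL1-0). By the limma test used below, 2 of the 9 tested were higher, KRT18 and KRT8 (555 ± 7.18 against 49.4 ± 0.98). EPCAM was lower (10.3 ± 0.85 against 29.3 ± 3.08), and 6 were not called. Summed leukocyte markers (4 on the array) ranged from 80.1 to 90.3 units in CL1-5 and from 82.1 to 96.7 in CL1-0, and endothelial markers (5) from 182 to 193 and from 103 to 125. PTPRC, CD14, CDH5 and KDR lay below the 40th percentile on all 6 arrays, while 2 of the 4 leukocyte markers (ITGAM and CD3E) and 2 of the 5 endothelial ones lay above it on every array of both lines. Of these PECAM1, an adhesion molecule of endothelium, was higher in CL1-5 (log2 fold change 1.11, limma adjusted p = 3.5e-05). It gave 115 ± 4.24 units, against 49.8 ± 6.13 in CL1-0, and its part in the results was not tested. The other endothelial markers tested, VWF (log2 fold change 0.07) and TEK (-0.12), were not called.

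The 10 genes did not move as a block. In the fit with 1 probe set per gene, 2 of 10 were higher in CL1-5 (DDIT4 and TRIB3), where 23.3% of all tested genes were, and 6 were lower (DDIT3, ATF3, SESN2, XBP1, ATF6 and, by its brighter probe set, HSPA5), where 28.3% of all genes were. ATF4 and ASNS did not pass. Calls come from limma at an adjusted p under 0.05 (Benjamini-Hochberg, over all 14828 genes). The median log2 fold change of the 10 was -0.39, against -0.03 over all genes. Arrays of the lines did not overlap for 7 of the 10, against 58.8% of all genes. In this fit only DDIT4 and DDIT3 passed with a change of at least 2-fold, a size reached with a call by 16.1% of all genes. ATF6 also did in 217550_at (-1.11), which is not the probe set taken for the gene. At the level of probe sets, 3 of 18 were higher and 9 lower, beside 19.8% and 24.6% of the 33777 tested, of which 44.4% were called in either direction. The lines did not overlap in 12 of the 18 tested probe sets, beside 53.5% of those tested over the whole array, and overlapped in both untested ones.

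**Figure D1:**
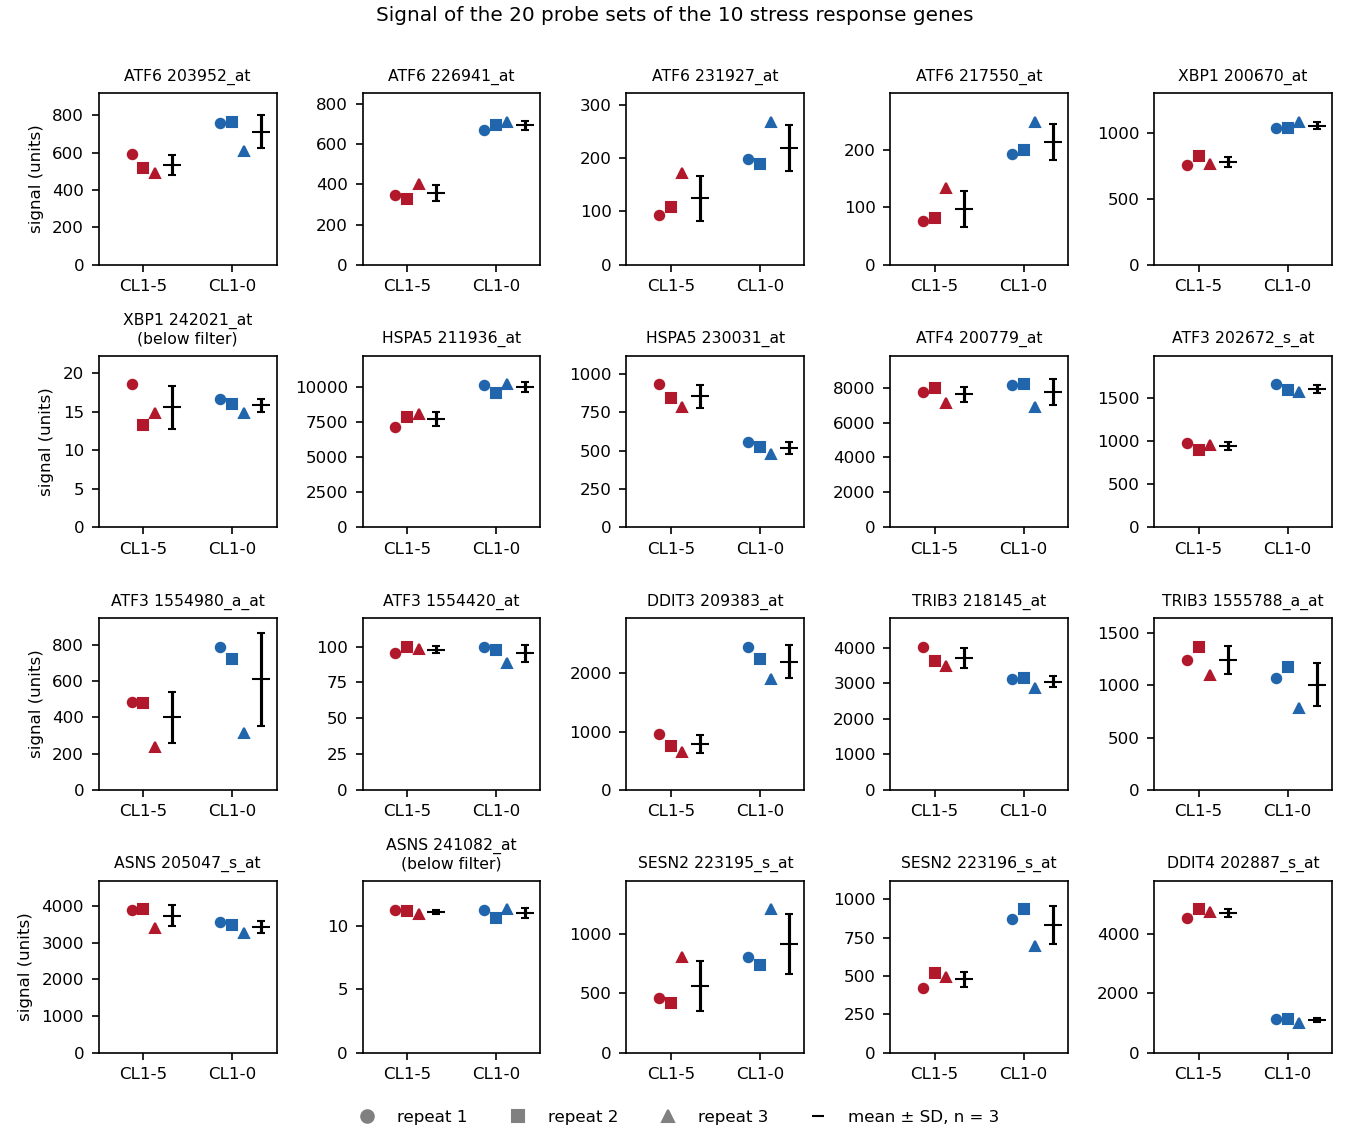
Signal in arbitrary units (linear axes from 0) of each of the 20 probe sets, with CL1-5 on the left and CL1-0 on the right; symbols mark repeats 1 to 3 and black bars the mean ± SD (n = 3). The lines do not overlap for 12 of the 20 probe sets, among them DDIT4 (higher in CL1-5), DDIT3 and all 4 of ATF6 (lower), whereas ATF4 and ASNS overlap.

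ATF6, the cleaved sensor of the ER, was read by 4 probe sets, and all 4 were lower in CL1-5. Probe set 203952_at gave 593, 520 and 489 units in CL1-5, against 761, 767 and 609 units in CL1-0. Probe set 226941_at gave 346, 325 and 400 units in CL1-5, against 671, 698 and 713 units in CL1-0. In both, each CL1-5 array lay below each CL1-0 array. Probe set 231927_at gave 93.2, 109 and 173 units in CL1-5, against 199, 190 and 269 units in CL1-0, and probe set 217550_at gave 76.9, 81.6 and 134 units, against 192, 200 and 249. The lines were again apart, though repeat 3 was the highest array of each line in these last probe sets. Log2 fold changes were -0.41 (SE 0.12), -0.95 (SE 0.10), -0.81 (SE 0.23) and -1.11 (SE 0.21), with adjusted p in limma over all probe sets of 0.027, 1.4e-04, 0.023 and 0.0031. ATF6 in the gene fit rests on 203952_at, the brightest and least changed of the 4, with an adjusted p of 0.017 in limma. That call was lost without CL1-5 replicate 2 (adjusted p = 0.062) or 3 (0.051) and without CL1-0 replicate 1 (0.066) or 2 (0.075). For probe set 231927_at it was lost without CL1-5 replicate 1 (0.072) or 2 (0.079) or CL1-0 replicate 3 (0.057), while 226941_at and 217550_at kept theirs under all 16 alternatives tried for them.

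XBP1, the transcription factor made active by splicing, gave 753, 821 and 765 units in CL1-5, against 1038, 1037 and 1084 units in CL1-0, through probe set 200670_at. Every CL1-5 array was below every CL1-0 array, with means of 779 ± 36.3 and 1053 ± 27.0 units (SD). XBP1 fell by 0.43 on the log2 scale (SE 0.07, limma adjusted p = 0.0012), and it passed as lower in all 18 alternatives. The other XBP1 probe set, 242021_at, read 13.2 to 18.5 units in CL1-5 and 14.8 to 16.6 in CL1-0, below the 40th percentile.

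HSPA5 encodes BiP, the main HSP70 chaperone of the ER lumen and the classic output gene of the pathway, and its probe sets disagreed. The bright one, 211936_at, gave 7156, 7881 and 8098 units in CL1-5, against 10153, 9568 and 10201 units in CL1-0. The dimmer one, 230031_at, for which the platform annotation lists no accession, gave 935, 844 and 787 units in CL1-5, against 558, 524 and 479 units in CL1-0. The lines did not overlap in either, but CL1-5 was the lower line in the bright probe set and the higher in the dim one. The log2 fold change was -0.37 for 211936_at (SE 0.06, limma adjusted p over all probe sets 0.0020) and 0.71 for 230031_at (SE 0.10, 7.0e-04). Both kept sign and call in all 16 alternatives tried for probe sets. The median over both probe sets gave 0.17 for HSPA5, not past the threshold (adjusted p = 0.066), so a direction for the gene depends on which probe set is taken.

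The promoters of HSPA5 and XBP1 are shown because both carry the ER stress response element (ERSE), the site by which ATF6 with the factor NF-Y is known to act. The element was searched as CCAAT and CCACG with 9 bases of any kind between them, on both strands, in the 250 bases before the start farthest upstream of each gene in RefSeq's promoter table (GRCh38.p14). It was found in 21 of 27305 promoters (0.0769%), HSPA5 and XBP1 among them. DDIT3, shown with them, holds it only where the last base is left free, a form that 79 promoters (0.289%) share. Capitals mark these matches, and the sequences run 5′ to 3′ to the base before the start, from chr9:125241344-125241593 (minus strand), chr22:28800570-28800819 (minus) and chr12:57520518-57520767 (minus).
HSPA5: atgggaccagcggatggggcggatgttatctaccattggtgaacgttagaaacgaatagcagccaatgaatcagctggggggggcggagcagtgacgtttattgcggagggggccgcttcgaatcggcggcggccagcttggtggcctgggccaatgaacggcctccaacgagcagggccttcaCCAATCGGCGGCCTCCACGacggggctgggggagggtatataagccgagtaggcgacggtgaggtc
XBP1: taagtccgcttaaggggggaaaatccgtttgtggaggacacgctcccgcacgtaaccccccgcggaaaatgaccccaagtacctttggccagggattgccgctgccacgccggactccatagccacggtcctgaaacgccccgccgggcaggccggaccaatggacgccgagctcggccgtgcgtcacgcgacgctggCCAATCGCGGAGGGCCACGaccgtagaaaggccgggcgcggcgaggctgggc
DDIT3: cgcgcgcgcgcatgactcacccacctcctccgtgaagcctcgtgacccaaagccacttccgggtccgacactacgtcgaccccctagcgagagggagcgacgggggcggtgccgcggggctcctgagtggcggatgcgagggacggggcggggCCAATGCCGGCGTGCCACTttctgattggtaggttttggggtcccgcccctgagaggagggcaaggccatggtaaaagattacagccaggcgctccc
The match begins 66 bases before the start in HSPA5, 52 in XBP1 and 97 in DDIT3. A match in these letters is a description and does not show binding. Of the 21 genes with the full element 13 were tested, and 6 were lower, 3 higher and 4 not called, beside 51.6% of all genes called in either direction. The lower ones were XBP1, HSPA5 through its bright probe set, SERP1 (log2 fold change -0.68), a partner of the ER translocon, the oxidoreductase ERO1B (-0.65, not called in 220012_at), EIF2A (-0.52) and TMEM120A (-0.68). The higher ones were the mannosyltransferase ALG12 (0.59), the lectin chaperone CALR (0.72) and the antiviral ubiquitin ligase TRIM5 (1.91).

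ATF4, the transcription factor at the centre of the integrated stress response, was bright and overlapped between the lines. It gave 7757, 7979 and 7129 units in CL1-5, against 8176, 8201 and 6864 units in CL1-0, with the lowest value in repeat 3 of each line. The log2 fold change was -0.02 (95% confidence interval -0.21 to 0.17, limma adjusted p = 0.87). A change of the transcript within that interval in either direction cannot be told from none with these arrays.

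ATF3, a stress-induced factor of the same bZIP class, was lower in CL1-5. Probe set 202672_s_at gave 979, 895 and 960 units in CL1-5, against 1663, 1593 and 1570 units in CL1-0, with no overlap. Its log2 fold change was -0.76 (SE 0.07, limma adjusted p = 2.9e-05). Probe set 1554980_a_at read 486, 478 and 239 units in CL1-5, against 788, 723 and 315 in CL1-0, where both lines dropped in repeat 3. At -0.56 it missed the threshold in limma (adjusted p over all probe sets 0.30), and with the repeat number as a replicate block it passed (2.1e-05). It also passed without CL1-0 replicate 3 (0.029), with a value of -0.97. Probe set 1554420_at lay at 95.7 to 99.9 units in CL1-5 and 88.4 to 99.7 in CL1-0 and did not pass (adjusted p = 0.78).

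DDIT3 encodes CHOP, the factor linked to death under lasting ER stress, and showed the largest decrease among the 10 genes. It gave 963, 745 and 653 units in CL1-5, against 2456, 2241 and 1905 units in CL1-0. The highest CL1-5 array lay far under the lowest CL1-0 array, and the mean signal in CL1-0 was 2.79 times that in CL1-5. The log2 fold change was -1.49 (SE 0.15, limma adjusted p = 3.8e-05), a size that 8.52% of all tested genes reached in either direction.

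TRIB3, the pseudokinase that CHOP and ATF4 induce and that restrains both and AKT, was slightly higher instead. Probe set 218145_at gave 4036, 3623 and 3503 units in CL1-5, against 3135, 3147 and 2880 units in CL1-0. The arrays did not overlap, and TRIB3 rose by 0.28 (SE 0.08, limma adjusted p = 0.013). The call was lost without CL1-5 replicate 1 (adjusted p = 0.052). Probe set 1555788_a_at gave 1246, 1369 and 1103 units in CL1-5, against 1067, 1174 and 779 units in CL1-0, which overlap. At 0.31 it missed the threshold (adjusted p = 0.15) without a replicate block and passed with one (9.9e-04).

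ASNS, asparagine synthetase, is a standard reporter of ATF4 activity under amino acid shortage. Its promoter is shown because it holds the core of the C/EBP-ATF response element, searched as TGATGNAA on both strands and found in 872 of the 27305 promoters (3.19%), in 2 of the 10 genes described here, ASNS and ATF3. The match in capitals begins 68 bases before the start, in chr7:97872409-97872658 (GRCh38.p14, minus strand).
ASNS: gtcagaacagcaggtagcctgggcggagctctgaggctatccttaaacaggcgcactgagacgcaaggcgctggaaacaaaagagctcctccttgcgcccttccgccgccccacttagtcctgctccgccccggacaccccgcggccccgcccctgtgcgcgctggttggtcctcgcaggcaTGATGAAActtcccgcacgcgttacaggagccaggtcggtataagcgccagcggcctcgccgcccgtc
Probe set 205047_s_at of ASNS gave 3886, 3911 and 3402 units in CL1-5, against 3574, 3477 and 3262 units in CL1-0. The lines overlapped, with CL1-5 the higher in each of the 3 repeat numbers. The difference of 0.12 (95% confidence interval -0.06 to 0.29) did not pass in limma (adjusted p = 0.25), and with the replicate block it did (adjusted p = 0.036).

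SESN2, a sestrin that holds back mTORC1 and is induced by ATF4 and p53, read lower in CL1-5 through both of its probe sets. Probe set 223196_s_at gave 423, 518 and 492 units in CL1-5, against 874, 935 and 692 units in CL1-0. There the lines did not overlap, with a log2 fold change of -0.79 (SE 0.13, limma adjusted p over all probe sets 0.0019). Probe set 223195_s_at gave 461, 416 and 808 units in CL1-5, against 807, 743 and 1211 units in CL1-0. Repeat 3 was far above the other repeats in both lines, so that the lines just overlap. SESN2 in the gene fit rests on this probe set, which is the brighter. There it fell by 0.73 (SE 0.26, limma adjusted p = 0.042), against an adjusted p of 0.062 over all probe sets. The SESN2 call was lost without CL1-5 replicate 1 (adjusted p = 0.12) or 2 (0.15), without CL1-0 replicate 1 (0.067) or 3 (0.11), and after quantile normalization (0.056). Without CL1-5 replicate 3, where the fold change was -1.03, probe set 223195_s_at passed over all probe sets (0.0047), and with the replicate block it passed at 6.1e-07.

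DDIT4 encodes REDD1, an inhibitor of mTORC1 that responds to energy stress, hypoxia, glucocorticoids and ATF4, and was the 1 gene of the 10 with a large increase. It gave 4537, 4818 and 4744 units in CL1-5, against 1132, 1140 and 1000.3 units in CL1-0. No array came near the other line, and the mean signal in CL1-5 was 4.31 times that in CL1-0. The log2 fold change of 2.10 (SE 0.08, limma adjusted p = 5.5e-08) was reached in size by 4.79% of all tested genes. The same direction and call held for DDIT4 in all 18 alternatives, as they did for DDIT3. In RNA from whole cultures, fewer cells expressing a gene and less RNA per cell cannot be told apart, for DDIT4 as for the others.

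**Figure D2:**
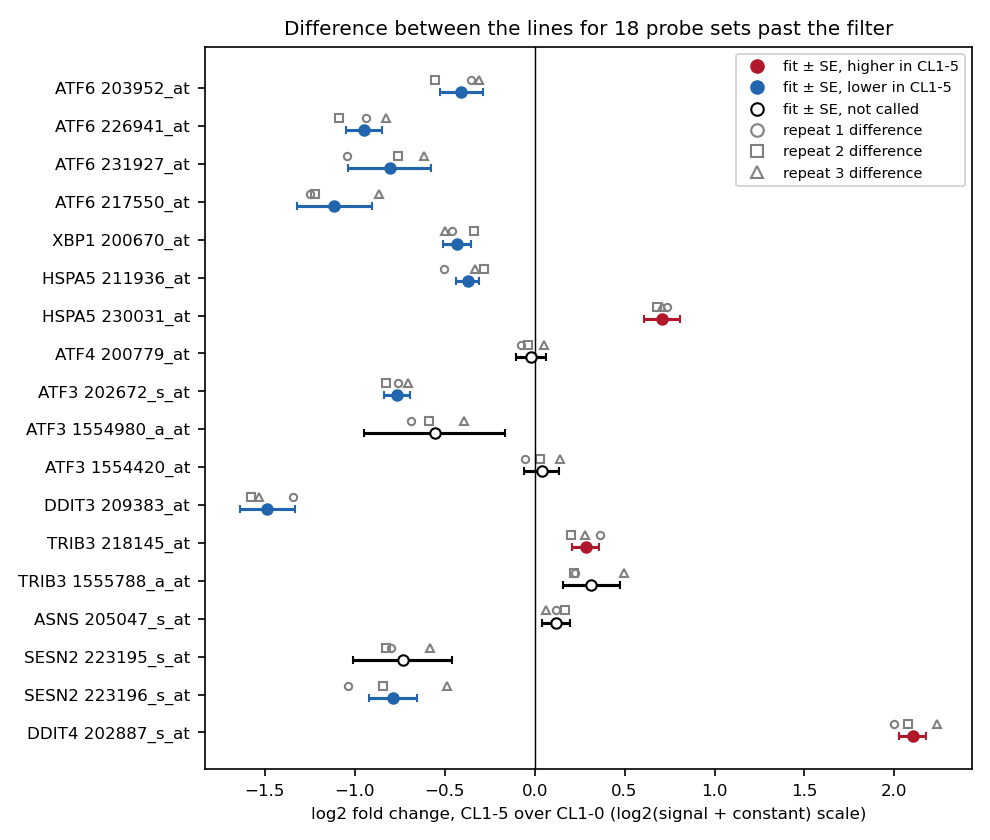
Log2 fold change of CL1-5 over CL1-0 with its standard error (filled circles called, open circles not called at an adjusted p under 0.05) for the 18 tested probe sets, and above each the difference between arrays of the same repeat number (grey symbols). The fold runs from -1.49 for DDIT3 to 2.10 for DDIT4, and the HSPA5 probe sets lie on opposite sides of 0. For 16 of 18 probe sets all 3 differences have the same sign, with no share over the whole array to set beside it.

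For 16 of the 18 tested probe sets the 3 differences between arrays of the same repeat number had 1 sign. The exceptions were ATF4 and ATF3 1554420_at. No share over the whole array was computed to set beside this count. Over the whole array the lines did not overlap in 53.5% of tested probe sets, and all such probe sets have 1 sign. The DDIT4 differences were 2.00, 2.07 and 2.24 and those of DDIT3 -1.34, -1.58 and -1.53. Repeat 3 departed from the mean of repeats 1 and 2 in the same direction in both lines for several probe sets. ATF3 1554980_a_at was lower in repeat 3 by log2 values of -0.99 in CL1-5 and -1.24 in CL1-0. SESN2 223195_s_at was higher by 0.87 and 0.64, ATF6 231927_at by 0.74 and 0.46, and ATF6 217550_at by 0.71 and 0.34. The bright probe sets of ATF3, XBP1 and HSPA5 departed by 0.11 or less in either line. The ACTB 3′ to 5′ ratio was highest in repeat 3 of both lines, as given above, and its part in these departures was not tested.

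**Figure D3:**
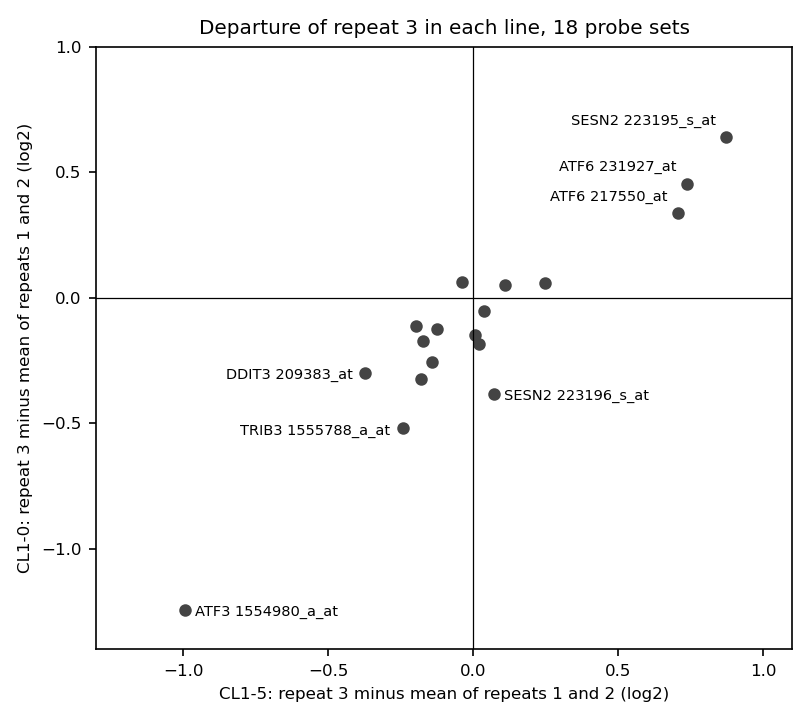
Departure of repeat 3 from the mean of repeats 1 and 2 on the log2(signal + 6.85) scale, CL1-5 on the horizontal and CL1-0 on the vertical axis, 1 point for each of the 18 tested probe sets. ATF3 1554980_a_at lies low in both lines, at -0.99 and -1.24, and SESN2 223195_s_at and ATF6 231927_at and 217550_at lie high in both.

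The wider pathway was described through 7 gene lists, of which 135 genes were tested. Together 34 were higher and 52 lower in CL1-5, or 63.7% called against 51.6% of all genes. The counts of each list below stand beside 23.3% of all genes higher, 28.3% lower and a median of -0.03. Where 5 or fewer genes of a list moved in a direction, all are named.

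Of 20 tested sensors and genes of eIF2 control 13 were lower and 5 higher, with a median of -0.39. The number lower was 8 at an adjusted p under 0.01 and 8 with the median over a gene's probe sets. PERK, EIF2AK3, gave 259 ± 17.5 units in CL1-5 and 482 ± 28.1 in CL1-0 (SD), a log2 fold change of -0.88 (SE 0.09, limma adjusted p = 5.1e-05). The eIF2 phosphatase subunits fell as well, the stress-induced PPP1R15A (GADD34) by 0.86 (SE 0.10) and the constitutive PPP1R15B by 0.92 (SE 0.10). The higher genes were EIF2AK2, the interferon-induced kinase PKR (1.55, SE 0.12), the ATF6-cleaving protease MBTPS1 (0.61), the eIF2B subunits EIF2B1 (0.48) and EIF2B5 (0.46), and the ATF6 relative ATF6B (0.42, SE 0.13). The ATF6B call was lost without CL1-5 replicate 1 (adjusted p = 0.080) or 2 (0.091) and without CL1-0 replicate 2 (0.081) or 3 (0.077). The amino acid sensor GCN2, EIF2AK4, had a value of 0.17 and did not pass (adjusted p = 0.48) without the replicate block and did with it (0.041). IRE1, ERN1, was lower in the probe set taken for the gene, 227755_at (219 ± 17.9 units in CL1-5 and 351 ± 21.5 in CL1-0, log2 fold change -0.67), and higher in 235745_at (188 ± 9.68 and 143 ± 4.89 units, 0.37), so it has no single direction.

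The list of ATF4 partners and stress outputs split, with 11 of 24 higher and 5 lower and a median of 0.19. It also holds relatives of TRIB3 and SESN2, so its counts are no measure of ATF4 output. NUPR1, a small chromatin-associated stress protein, gave 1611 ± 366 units in CL1-5 and 74.4 ± 14.6 in CL1-0 (4.31, SE 0.19, limma adjusted p = 2.0e-07), and the TRIB3 relative TRIB1 gave 974 ± 11.9 and 93.7 ± 8.92 (3.29, SE 0.09). TRIB1 rose less in the dim probe set 239818_x_at (1.55). The ER oxidoreductase ERO1A (2.13, SE 0.08, and 1.38 and 1.34 in 218498_s_at and 225750_at) and PMAIP1, the BH3-only protein NOXA (1.82, SE 0.10), rose as well. The lower genes were ATF5 (-1.17), a factor translated like ATF4, the mitochondrial protease LONP1 (-1.03), the TRAIL receptor TNFRSF10B (-0.99), the ATF4 partner CEBPG (-0.96) and the translation repressor EIF4EBP1 (-0.54). Among relatives of the genes above, TRIB2 had a value of 0.17 (adjusted p = 0.22) and SESN1 of -0.21 (0.14), neither past the test, and SESN3 did not pass the filter.

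Genes of amino acid synthesis and transport, to which ASNS belongs, were lower in 9 of 19 and higher in 4, with a median of -0.31. ALDH1L2, an enzyme of mitochondrial folate metabolism, gave 21.1 ± 2.16 units in CL1-5, above the 40th percentile on 2 of 3 arrays, and 305 ± 81.8 in CL1-0 (-3.45, SE 0.18, limma adjusted p = 5.0e-07). Its dimmer probe sets 1556841_a_at and 1559393_at gave -1.17 and -0.98. The proline synthesis enzyme PYCR1 (-1.36, SE 0.07), the cysteine-forming CTH (-0.99, SE 0.13) and the mitochondrial serine hydroxymethyltransferase SHMT2 (-0.98, SE 0.08) fell as well. The higher genes were the phosphoserine phosphatase PSPH (0.60), the glycine transporter SLC6A9 (0.60), PCK2 (0.48) and the leucine transporter SLC7A5 (0.32). The list of aminoacyl-tRNA synthetases, many of them ATF4 targets, was lower in 9 of 18 and higher in 2, with a median of -0.41. The 18 include the tRNA exporter XPOT, which is no synthetase and was not called (-0.08). WARS1 (-0.97, SE 0.09), VARS1 (-0.77, SE 0.14) and EPRS1 (-0.68, SE 0.19) fell, whereas TARS1 (0.33) and SARS1 (0.78, SE 0.09) were higher. SARS1 was lower in its other probe set, 231894_at (249 ± 10.4 units in CL1-5 and 451 ± 43.5 in CL1-0, -0.83). Without CL1-0 replicate 1 only 1 synthetase was higher.

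Of 21 tested ER chaperones and folding enzymes 5 were higher and 4 lower, 42.9% called, with a median of 0.08. In the probe sets taken for the genes no called change reached 2-fold, but FKBP11 in 219118_at (1.24) and FKBP14 in 230728_at (-1.18) did. The higher ones were the isomerase FKBP11 (0.72, SE 0.09), CALR (0.72, SE 0.21), the co-chaperone DNAJC10 (0.56), the secreted MANF (0.40) and the disulfide isomerase PDIA6 (0.25), and the lower ones FKBP14 (-0.81, SE 0.17), ERO1B (-0.65, SE 0.09), the BiP co-chaperone DNAJB9 (-0.54) and TXNDC11 (-0.48). FKBP11 did not pass in 228308_at (0.28, adjusted p over all probe sets 0.066), nor did ERO1B in 220012_at (-0.25, adjusted p 0.23). With the replicate block 10 chaperones and folding enzymes were higher and 6 lower. The number higher was 2 without CL1-5 replicate 2, and 3 without CL1-0 replicate 1 or 2. CALR did not pass with the median over its probe sets (0.43, adjusted p = 0.29), without CL1-5 replicate 2 (adjusted p = 0.074) or 3 (0.053) or without CL1-0 replicate 1 (0.070) or 2 (0.057). HSP90B1, the ER HSP90 called GRP94, gave 1504 ± 309 units in CL1-5 and 1190 ± 250 in CL1-0, read by a probe set with suffix x, which may cross-hybridise, and its value of 0.34 did not pass (adjusted p = 0.17). With the block it passed (1.1e-04), and without CL1-5 replicate 3 as well (0.039). Its dimmer probe set 216450_x_at was higher (0.60, adjusted p over all probe sets 0.0088). DNAJC3, the PERK inhibitor p58, had a value of 0.08 (adjusted p = 0.65). Its other probe sets gave 0.37 in 208499_s_at, which passed (adjusted p over all probe sets 0.011), and 0.38 and 0.47 in 235341_at and 1558080_s_at, which did not.

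Genes of ER-associated degradation and export were lower in 8 of 23 and higher in 5, with a median of -0.10. The higher ones were the retrotranslocation protein DERL1 (1.60, SE 0.20), the lectin EDEM1 (1.14, SE 0.09), the retrieval receptor KDELR3 (0.74, SE 0.11), ERLEC1 (0.28) and the stress-induced HERPUD1 (0.25). DERL1 rose less in its probe sets 218172_s_at (0.98) and 222543_at (0.92), and the dim 225488_at did not pass (-0.05). WFS1, the ER membrane protein wolframin, fell by 1.12 (SE 0.14). Without CL1-5 replicate 2 the number lower was 5. Among other CREB and ATF factors 2 of 10 were higher, ATF7 (0.63, SE 0.10) and CREB1 (0.35), and 4 lower, CREB5 (-1.36, SE 0.14), the ER-anchored CREB3L2 (-1.21, SE 0.19) and CREB3 (-0.48, SE 0.13), and CREBZF (-0.30). ATF7 was lower through probe sets 244587_at (-0.61) and 235160_at (-0.33), and with the median over its probe sets it did not pass (0.15, adjusted p = 0.28). CREB5 was lower in 229228_at as well (-1.65, adjusted p over all probe sets 1.6e-05), which lay under the 40th percentile on every CL1-5 array. In 232555_at CREB5 did not pass (-0.12, adjusted p 0.50). The number higher was 4 with the replicate block and without CL1-5 replicate 1, and 1 without CL1-0 replicate 2.

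**Figure D4:**
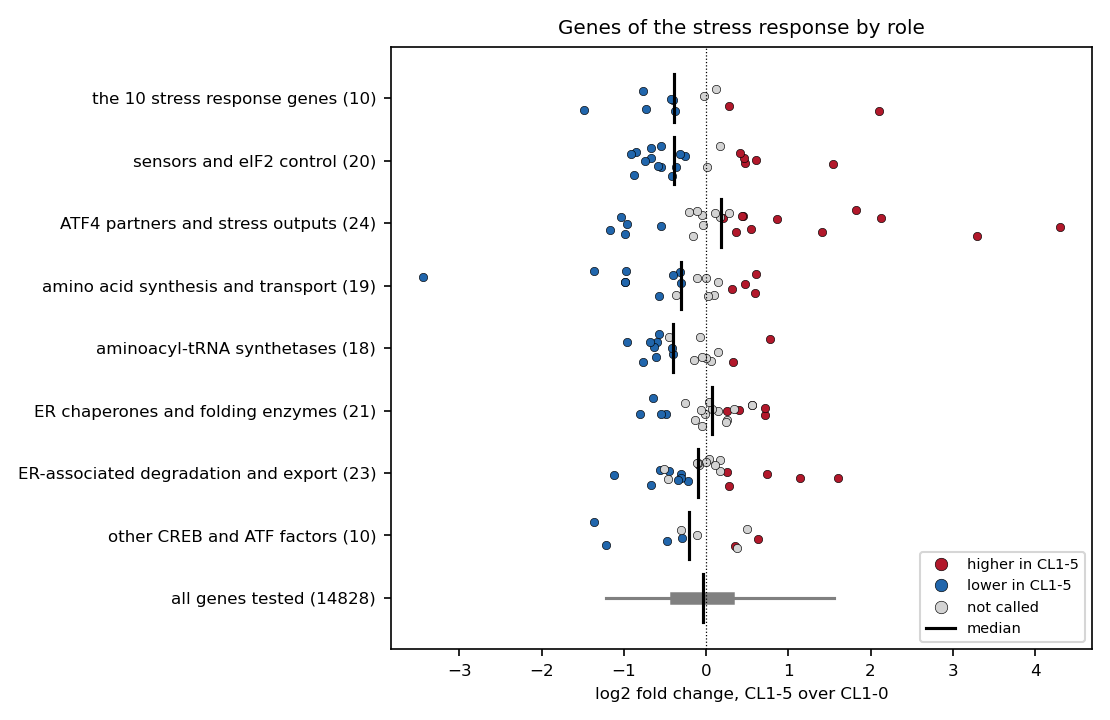
Log2 fold change of CL1-5 over CL1-0 for each tested gene of the 10 stress response genes and the 7 lists (numbers in brackets), coloured by call, with the list median as a black bar; the bottom row gives the median, quartiles (thick) and 5th to 95th percentiles (thin) of all 14828 genes. Medians run from -0.41 for the list of aminoacyl-tRNA synthetases, which includes XPOT, to 0.19 for the ATF4 partners and stress outputs. NUPR1 at 4.31 and ALDH1L2 at -3.45 lie farthest out.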

How the data were processed

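The deposited values are probe set intensities on a linear scale, 1 array per sample. The submitters' processing notes name MAS5 for the deposited intensities, and no source used here gives a version or later scaling. Groups and repeat numbers come from the titles. Symbols are those of the array's platform annotation, updated by gene identifier (41037 of 41091 with 1 symbol) to RefSeq, GRCh38.p14. The added constant, 6.85, is the 10th percentile of all values. Tested probe sets exceeded the 40th percentile of their array on at least 3 of 6 arrays, and a gene was represented by its brightest, without suffix x where another passed. Tests were those of limma 3.58.1, with the prior variance following mean signal, run under R 4.3.3. P-values measure the spread between 3 repeats a line. On simulated data for CL1-5 against CL1-0 (14828 genes) 38% of changes of 0.5 and 88% of 1 (log2) were recovered. An adjusted p depends on the share of genes that differ. These rates may therefore not hold for the arrays themselves, where 51.6% of genes were called.

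The repeat numbers were taken to pair arrays, since deviations from the line means correlated at 0.475, 0.280 and 0.649 over genes for repeats 1, 2 and 3; the fit reported has no block, and blocked values stand where a call changed. The members, lists and alternatives were chosen with earlier results of these data known. Named were the 10 genes, the 4 largest calls of each list and 11 fixed relatives. Sets of 5 or fewer, genes with an ERSE and some markers were named after their values were seen.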

Additional observations from a re-analysis of the deposited data

How the results depend on the processing

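Of the 10 genes, ATF4, DDIT3, DDIT4 and XBP1 kept their side of the threshold in all 18 alternatives (added constant, filter, scaling, prior variance, array weights, replicate block, repeats 1 and 2 alone, stricter threshold, choice of probe set, each array left out). The number of them higher, 2, was 1 to 3 over all alternatives. It was 1 at an adjusted p under 0.01, between 1 and 2 without each array, and 3 with the replicate block. The number lower, 6, was 4 to 6 over all alternatives. TRIB3, ATF6 and SESN2 also failed at 0.01. ASNS passed with array weights (adjusted p = 0.0065) and the replicate block, as given above. With the median over a gene's probe sets 3 values changed sign: HSPA5 (0.17), ERN1 (0.37) and SARS1 (-0.028), each a gene whose probe sets disagree, and ATF3 (adjusted p = 0.26), CALR (0.29) and ATF7 (0.28) no longer passed, while HSP90B1 did (0.034). The replicate block gave 4145 genes higher and 5149 lower, beside 3448 and 4196 without it, and ended no call among the 10 genes. Among the lists, counts that moved by over 1.5 times were these, beside those given above. At an adjusted p under 0.01 there were 8 sensors lower, 1 synthetase higher, 2 chaperones higher, 4 degradation genes lower, and 1 CREB and ATF factor higher and 2 lower. With the median over probe sets there were 8 sensors lower, 0 synthetases higher in limma (also 0 at an unadjusted p under 0.05), 3 degradation genes higher and 1 CREB and ATF factor higher. Array weights gave 9 chaperones, 8 degradation genes and 4 CREB and ATF factors higher, and repeats 1 and 2 alone 8 chaperones higher. Signals near the 40th percentile limit ALDH1L2 and CREB5, whose decreases are understated on this scale.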
